A study of Mus musculus with 18 samples.

Results

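The genes described here are 10 genes that mark macrophages living in tissues: Csf1r, Adgre1 and Lyz2, which are used across the lineage, and Vsig4, Mrc1, Cd163, Lyve1, Folr2, Marco and Trem2, which separate kinds of tissue macrophage. They were chosen by name, with earlier results of these data known, and all 10 of 10 were found among the 49585 genes counted. They were followed through 18 bulk RNA-Seq libraries in 6 groups of 3.

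Each library was made from CD45+ leukocytes sorted from Kaede mice, whose cells carry a green fluorescent protein that light turns red. A red cell in a lymph node is taken as one that was in the lit tissue. The paper reports a slight rise of red cells in the joint's node right after lighting. Some red node cells may therefore not have come from the joint. Mice were 6 to 10 weeks old. In the inflamed groups, Kaede mice received OT-II Th1 cells, which recognise ovalbumin, and were then immunized with 100 μg OVA in CFA. On day 10 they were challenged with 100 μg heat-aggregated ovalbumin (HAO), in the footpad for the joint and in the ear pinna for the skin. Tissue was lit on day 3 after the challenge, and red cells were sorted 24 hours later. Red cells still in the tissue form the joint nonmigrated and skin nonmigrated groups, and red cells in the draining node form the joint migrated and skin migrated groups. Inflamed libraries are pools of 8 to 18 mice. In the other two groups, the labels give steady-state leukocytes of the node that had moved there from the joint or from the ear. The joint node titles name PBS and KG, a code the labels do not explain, and the skin node titles name naive mice. The protocol gives Kaede red sorting for every sample, but whether the gate was the same in the groups compared is not clear from these titles. What else these mice received is not given in the sources used here. No macrophage gate was part of the sort. A difference between groups can therefore be a difference in the number of macrophages or in the RNA each one holds, and bulk counts cannot tell these apart.

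As background, macrophages depend on the receptor CSF1R, through which CSF1 and IL-34 keep them alive. Most tissues hold macrophages that arrived before birth or renew in place, beside others that come from blood monocytes during inflammation. In the joint, cells with VSIG4 and TREM2 form a lining layer, while cells with MRC1, CD163, LYVE1 and FOLR2 sit around vessels. In the dermis, macrophages with MRC1, CD163 and LYVE1 also lie beside vessels. MARCO is a scavenger receptor best known from macrophages of the lung, the splenic marginal zone and the lymph node medulla.

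Levels are CPM, a gene's reads as a share of the library on a fixed scale, with libraries scaled by TMM so that the bulk of genes match. Libraries held 19239531 to 43814403 counts assigned to genes, and every inflamed skin library was shallower than every joint library. Column names of the inflamed skin libraries also follow another pattern than those of all other libraries. The paper describes the skin cells as a second data set, compared with joint populations made before. Site and data set therefore cannot be told apart among the inflamed groups. Skin steady-state libraries held 28577566 to 40055171 counts, more than any skin migrated library. To which data set they belong is not given. A count of 3, taken as the floor, corresponded to 0.0616 to 0.18 CPM. A gene is called changed at an adjusted p under 0.001 (edgeR quasi-likelihood test, Benjamini-Hochberg over all tested genes) with a log2 fold change beyond 1 in either direction.

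One library stood apart. Skin nonmigrated replicate 3 held more of every one of these 10 genes than skin nonmigrated replicates 1 and 2. Relative to the mean of those replicates, the excess ran from 2.06-fold for Csf1r and 2.79-fold for Mrc1 to 11.9-fold for Cd163 and 15.1-fold for Marco. Other genes moved with it. The summed level of 6 fibroblast genes was 255 CPM in that library against 59.96 and 62.4 CPM, and that of 5 mast cell genes was 323 CPM against 25.4 and 20.9 CPM, while 11 neutrophil genes summed to 1648 CPM against 2183 and 2831 CPM. The part of these cells in the results was not tested. For the 10 genes, values without it are given beside those that rest on it.

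The list was set beside 14 genes that macrophages share, among them Cd68, Mertk and the C1q genes. Those were also chosen with earlier results of these data known, so they are no independent check of its label. All 14 were above the floor in every library, and their summed level was 8600 to 11480 CPM in joint nonmigrated and 5014 to 10320 CPM in skin nonmigrated cells. It was 333.5 to 560.7 CPM in joint migrated and 514.7 to 708.1 CPM in skin migrated cells. The lowest sums, 66.9 to 85.6 CPM, came from the skin node at steady state, with 216 to 255 CPM in the joint node at steady state.

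**Figure D1:**
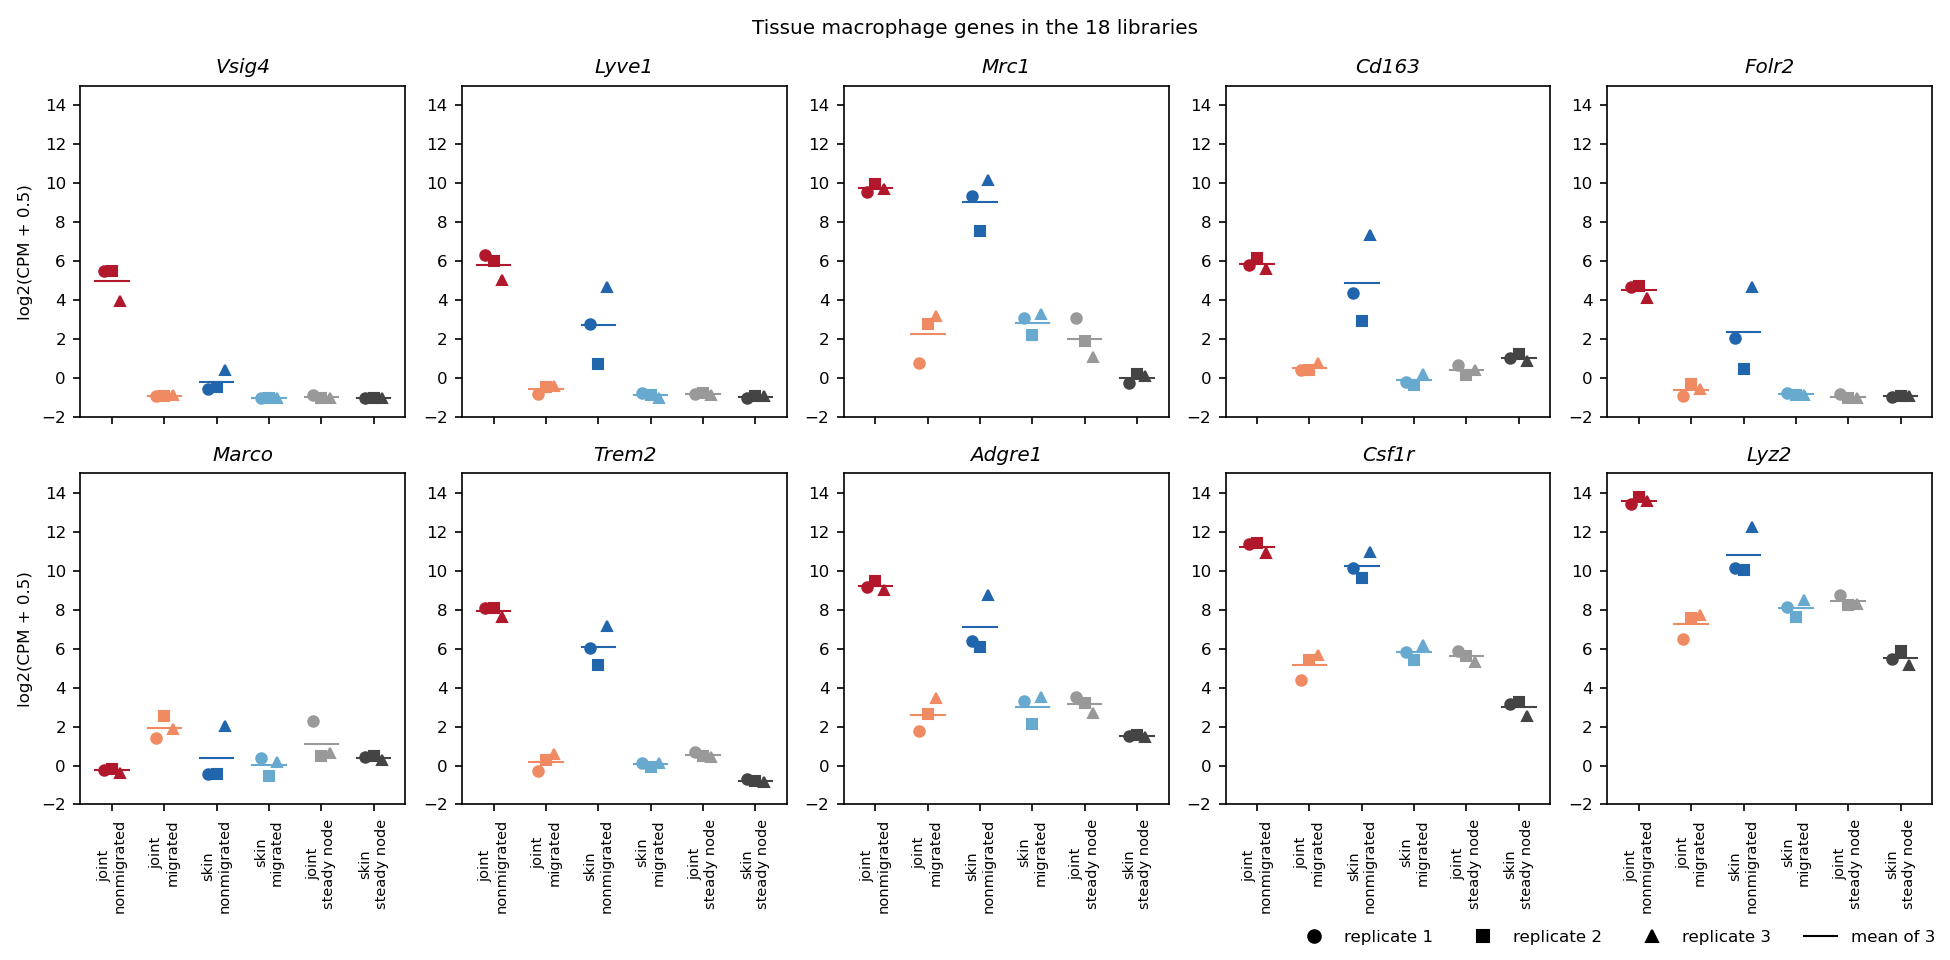
Level of each of the 10 genes in the 18 libraries, as log2(CPM + 0.5) on the y axis, with the 6 groups on the x axis, 1 point per library and a line at the mean of 3. All genes but Marco were highest in nonmigrated cells, and Marco was highest in joint migrated cells, where it reached 5.30 CPM.

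The promoters of 4 members are printed because they hold the 6-base core bound by PU.1, the product of Spi1 and a factor that macrophages need to form. The set joins Vsig4, Mrc1 and Trem2, which were high in joint nonmigrated cells, with Marco, which was not. Each is the 250 bases before the gene's start in RefSeq, build GRCm38.p6, written 5′ to 3′ on the gene's strand. Capitals mark GAGGAA or its reverse complement TTCCTC. The windows are chrX:96293439-96293688 on the minus strand for Vsig4, chr2:14229164-14229413 on the plus strand for Mrc1, chr17:48346151-48346400 on the plus strand for Trem2 and chr1:120505025-120505274 on the minus strand for Marco.
Vsig4: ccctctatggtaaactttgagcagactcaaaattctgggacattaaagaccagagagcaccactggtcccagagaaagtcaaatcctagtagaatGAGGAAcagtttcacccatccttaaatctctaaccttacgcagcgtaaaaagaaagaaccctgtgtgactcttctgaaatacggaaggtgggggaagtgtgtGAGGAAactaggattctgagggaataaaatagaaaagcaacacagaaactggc
Mrc1: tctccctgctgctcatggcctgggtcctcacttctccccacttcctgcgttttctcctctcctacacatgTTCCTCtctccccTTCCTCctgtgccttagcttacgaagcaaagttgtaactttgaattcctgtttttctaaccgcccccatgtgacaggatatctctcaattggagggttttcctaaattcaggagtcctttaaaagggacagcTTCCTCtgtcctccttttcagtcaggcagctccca
Trem2: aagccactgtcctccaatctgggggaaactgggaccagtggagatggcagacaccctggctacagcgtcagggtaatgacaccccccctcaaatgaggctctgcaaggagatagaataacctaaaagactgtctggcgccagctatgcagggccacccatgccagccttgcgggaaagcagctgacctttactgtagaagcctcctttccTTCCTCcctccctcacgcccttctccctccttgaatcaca
Marco: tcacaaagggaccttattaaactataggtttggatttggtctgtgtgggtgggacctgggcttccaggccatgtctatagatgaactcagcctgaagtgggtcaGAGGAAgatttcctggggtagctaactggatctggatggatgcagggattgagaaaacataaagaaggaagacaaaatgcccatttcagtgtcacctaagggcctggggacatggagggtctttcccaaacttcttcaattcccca

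Promoter windows of 7 of the 10 genes were searched, 8 windows in all since Folr2 has a pair. Lyve1, Adgre1 and Csf1r were not among the genes searched. The core stood in 4 of the 8 windows, with 2 matches for Vsig4, 3 for Mrc1 and 1 each for Trem2 and Marco. Among all 32851 windows of the same length, 23.3% held it. None of the 8 held the longer form GAGGAAGT, which 2.44% of all windows held. Both strands were searched, and a match is a description of the letters alone.

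The first question was how cells that stayed in the inflamed joint differed from cells that left it. Of the 10 genes, 9 were called lower in joint migrated cells and none higher, and Marco alone stood higher, without a call. Among all 16777 genes tested, 12.6% were called lower and 8.8% higher, 21.4% in all. All 10 genes passed at an adjusted p under 0.05, where 34.3% of all genes did. That share depends on the scaling: with library totals alone the median log2 fold change of all genes was 0.33, not 0.02, and 1676 genes were lower and 2356 higher, against 2110 lower and 1476 higher. The 9 calls held under that scaling. Cd163 lost its call when any joint migrated library, joint nonmigrated replicate 1 or joint nonmigrated replicate 2 was left out, and Folr2 when any joint migrated library was.

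Csf1r encodes the receptor for CSF1 (chromosome 18, 61100598 to 61132149, plus strand). Its level in joint nonmigrated cells was 2686, 2696 and 1954 CPM, and in their joint migrated counterparts 20.5, 42.9 and 50.1 CPM. The groups lay far apart, and the log2 fold change was -6.01 ± 0.45 (SE, n = 3 per group, adjusted p = 1.35e-06). Adgre1, which encodes F4/80, an adhesion receptor used to identify mouse macrophages (chromosome 17, 57358691 to 57483527, plus strand), went from 576, 696 and 511 CPM to 2.87, 5.72 and 10.4 CPM. It fell by 6.55 ± 0.82 on the log2 scale (adjusted p = 4.3e-05).

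Lyz2 encodes lysozyme M, a bacteria-killing enzyme that monocytes and neutrophils also make (chromosome 10, 117277331 to 117282321, minus strand). It was the most abundant of the 10, at 10930, 13890 and 12000 CPM in joint nonmigrated libraries against 91.2, 193 and 213 CPM in joint migrated cells. The log2 fold change was -6.21 ± 0.66 (adjusted p = 1.36e-05). Neutrophil genes moved the same way: all 11 of the list were called lower, and their sum was 9807 to 31440 CPM in joint nonmigrated and 52.96 to 113 CPM in joint migrated libraries. How much of the Lyz2 signal came from neutrophils was not tested. Among the 100-base windows of Lyz2 transcripts, 1.97% also occur in the neighbouring paralog Lyz1.

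Vsig4 encodes a complement receptor that binds fragments of C3 (chromosome X, 96247203 to 96293438, minus strand). It was found at 44.3, 44.3 and 15.2 CPM in joint nonmigrated cells and was close to missing from every other group. Joint migrated libraries held 2, 1 and 2 reads of it, against 1618, 1333 and 504 in joint nonmigrated libraries. The ratio of the summed counts was 956-fold, with a 95% counting interval of 409- to 2945-fold that covers counting error only, and the call had an adjusted p of 4.31e-06.

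Trem2, a lipid-sensing receptor that signals through the adaptor TYROBP (chromosome 17, 48346401 to 48354147, plus strand), stood at 275, 275 and 194 CPM in cells that stayed in the joint. After migration it was 0.328, 0.701 and 1.01 CPM, a log2 fold change of -8.51 ± 0.58 (adjusted p = 7.5e-07). Tyrobp itself was called lower by a smaller amount, with a log2 fold change of -2.54 ± 0.20.

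Among the endocytic receptors, Mrc1, the mannose receptor (chromosome 2, 14229392 to 14332057, plus strand), was the most abundant. Its levels were 758, 1011 and 831 CPM in joint nonmigrated and 1.21, 6.47 and 8.59 CPM in joint migrated cells. That is a log2 fold change of -7.32 ± 0.84 (adjusted p = 2.35e-05). Cd163, which takes up haemoglobin bound to haptoglobin (chromosome 6, 124304656 to 124330527, plus strand), was 55.0, 70.8 and 47.95 CPM against 0.821, 0.864 and 1.22 CPM. Its log2 fold change, -5.89 ± 0.98, was the smallest of the 9 (adjusted p = 0.00036).

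Lyve1, a hyaluronan receptor shared by lymphatic vessels and some macrophages (chromosome 7, 110850607 to 110863239, minus strand), was 81.1, 65.4 and 32.2 CPM in joint nonmigrated cells. Joint migrated libraries held 3, 10 and 12 reads, or 0.0616, 0.234 and 0.257 CPM, and the log2 fold change was -8.32 ± 1.05 (adjusted p = 4.59e-05). Prox1, which defines lymphatic vessels, was at 0.246 to 0.782 CPM in joint nonmigrated cells. The list of 9 lymphatic and vessel genes, with 1 called lower, summed to 120 to 199 CPM there and to 90.7 to 118 CPM in joint migrated cells.

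Folr2, the folate receptor beta (chromosome 7, 101839988 to 101857194, minus strand), was 25.5, 26.1 and 17.1 CPM against 0.0411, 0.327 and 0.172 CPM. Joint migrated replicate 1 held 2 reads of it. The log2 fold change was -6.99 ± 1.10 (adjusted p = 0.000235). Of the exonic length of Folr2, 63.1% is overlapped by Gm10602 on the other strand, which was itself at 1.20 to 2.19 CPM in joint nonmigrated cells, and where strand was not used in counting the reads of the pair cannot be told apart. Likewise 15.1% of the Csf1r exons lie over Hmgxb3, which stood at 30.5 to 36.1 CPM there, about the size of Csf1r in migrated cells but far below it in nonmigrated cells.

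Marco (chromosome 1, 120474538 to 120505024, minus strand) went the other way. Joint nonmigrated libraries held 0.356, 0.399 and 0.271 CPM, or 9 to 13 reads, and joint migrated libraries 2.14, 5.30 and 3.17 CPM, or 104 to 227 reads. The groups did not overlap. The log2 fold change of 3.36 ± 0.89 had an adjusted p of 0.00699, short of the threshold in edgeR, and DESeq2 gave 0.000322.

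The second question was whether the same held in skin. Here 8 of the 10 genes were called lower in skin migrated than in skin nonmigrated cells, where 12.4% of all genes were lower, 8.49% were higher and 20.9% were called in all. At the looser 0.05 threshold 9 of the 10 passed, against 35.4% of all genes. With library totals alone, 1717 genes were lower and 2274 higher, against 2084 lower and 1424 higher. The genes not called were Vsig4 and Marco. All 8 were also called without skin nonmigrated replicate 3, but without any single skin migrated library 3 were left, Mrc1, Trem2 and Csf1r, the others reaching an adjusted p of 0.00484 at most.

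Csf1r was 1142, 798 and 1998 CPM in skin nonmigrated and 56.9, 42.0 and 71.9 CPM in skin migrated libraries, and its log2 fold change was -4.53 ± 0.42 (adjusted p = 5.42e-06), or -4.09 ± 0.36 without replicate 3. Adgre1 was 84.7, 68.3 and 426 CPM against 9.31, 3.89 and 11.1 CPM. Its fold change was -4.57 ± 0.75 on the log2 scale, and -3.23 ± 0.47 without replicate 3. For neither gene did the groups overlap.

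Lyz2 showed the smallest fall of the 8, from 1120, 1062 and 4905 CPM to 280, 197 and 358 CPM. The log2 fold change was -3.09 ± 0.57 (adjusted p = 0.000724) with all libraries and -1.97 ± 0.32 (adjusted p = 0.000396) without replicate 3. Neutrophil genes again moved with it, 9 of 11 being called lower. Their sum was 1648 to 2831 CPM in skin nonmigrated and 14.6 to 29.6 CPM in skin migrated cells.

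Mrc1 was 655, 187 and 1173 CPM in skin nonmigrated cells and 8.01, 4.09 and 9.30 CPM in skin migrated cells (log2 fold change -6.55 ± 0.82, adjusted p = 4.42e-05). Trem2 was 64.6, 34.9 and 141 CPM against 0.605, 0.449 and 0.576 CPM (-7.19 ± 0.59, adjusted p = 2.32e-06). Without replicate 3 the values were -5.88 ± 0.72 for Mrc1 and -6.50 ± 0.40 for Trem2, both still called.

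Several further receptors rested more on replicate 3. Cd163 was 20.4, 7.13 and 163 CPM in skin nonmigrated against 0.372, 0.3 and 0.665 CPM after migration, a log2 fold change of -7.13 ± 1.12 that became -4.92 ± 0.47 without that library. Lyve1 was 6.42, 1.17 and 24.9 CPM, while skin migrated libraries held 2, 1 and 0 reads, so that the ratio of summed counts was 244-fold with a counting interval of 83.3- to 1189-fold. Of its 607 reads in skin nonmigrated cells, 480 came from replicate 3, without which the log2 fold change was -6.22 ± 1.05 (adjusted p = 0.000506). In the same comparison 4 of 9 lymphatic and vessel genes were called lower, their sum going from 345 to 655 CPM down to 69.9 to 74.7 CPM, and their part in the Lyve1 signal was not tested. Folr2 was 3.66, 0.877 and 24.8 CPM, against 2, 1 and 1 reads, a ratio of 167-fold with an interval of 64.9- to 615-fold. Replicate 3 gave 477 of its 553 reads, and without it the log2 fold change was -5.09 ± 0.85 (adjusted p = 0.000442). All were above the migrated libraries in each replicate.

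Vsig4 was barely detected in skin. Skin nonmigrated libraries held 3, 4 and 16 reads and skin migrated libraries none, which makes nonmigrated cells at least 2.95-fold higher against a floor of 3 counts per library. That bound rests on replicate 3, without which the mean was 0.207 CPM against a mean floor of 0.141 CPM. The adjusted p was 0.00696, and 0.0323 without replicate 3. Marco was at 0.24, 0.234 and 3.59 CPM in skin nonmigrated and 0.791, 0.2 and 0.62 CPM in skin migrated cells, and the groups overlapped. Its log2 fold change of -1.34 ± 0.89 (adjusted p = 0.22) turned to 1.18 ± 0.68 (adjusted p = 0.164) without replicate 3.

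**Figure D2:**
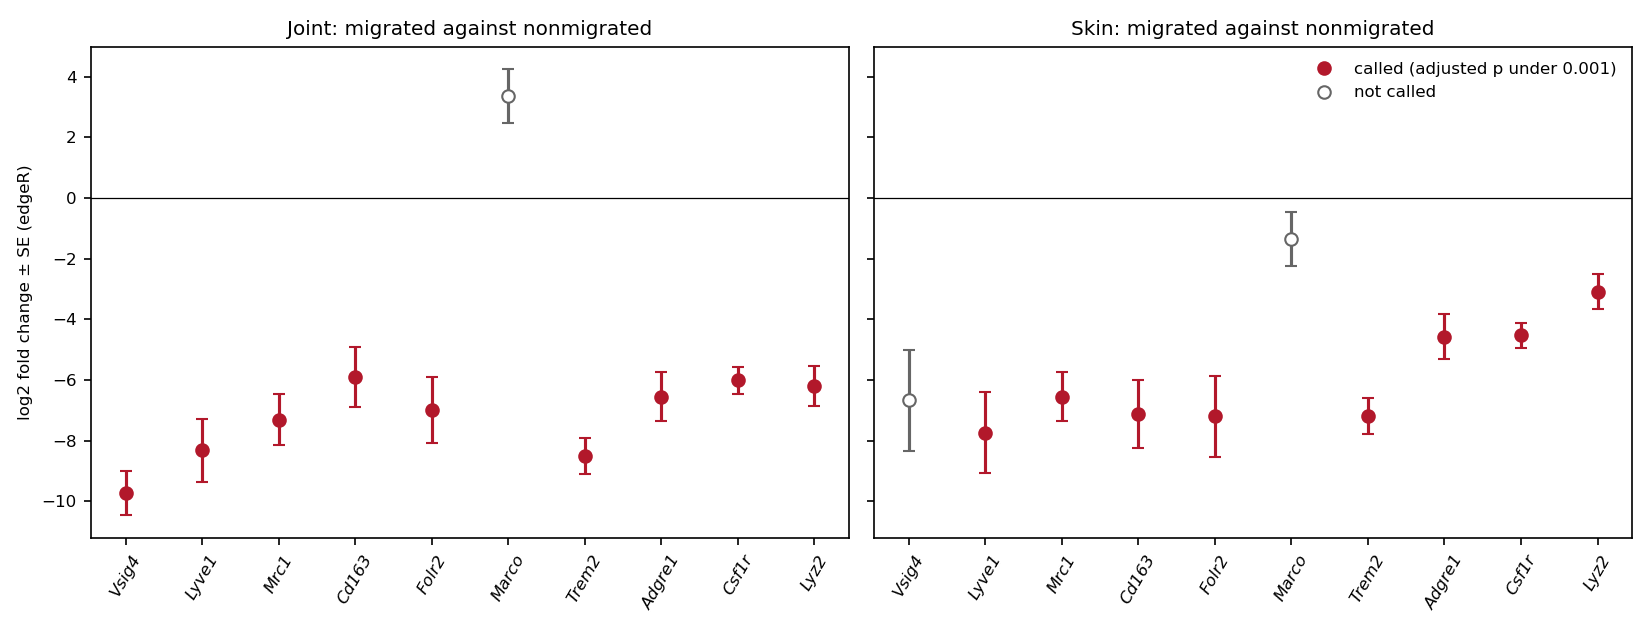
Log2 fold change of the 10 genes in migrated against nonmigrated cells, with its standard error, for the joint at left and the skin at right (3 libraries per group), filled where called. In the joint 9 genes were called lower, in the skin 8, and Marco was the gene above 0 in the joint. Vsig4 had no read in skin migrated cells, so its fitted value there is no measure of size.

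The fall with migration was set against the site in an interaction test, in which a negative value is a larger fall in the joint. By edgeR 0 of the 10 genes were called, where 0.119% of all genes were, 0.0656% higher and 0.0536% lower. By unadjusted p under 0.05 there were 3, Marco, Csf1r and Lyz2, and DESeq2 called 1. No number over all genes is given here for these rules, so the counts are not read as particular to the 10 genes. With the threshold at 0.05 there were 2, Marco and Lyz2, where 6.13% of all genes passed. Lyz2 gave -3.12 ± 0.76 (adjusted p = 0.0304) and was called without skin nonmigrated replicate 3, at -4.24 ± 0.47 (adjusted p = 0.000277). Marco gave 4.70 ± 1.25 (adjusted p = 0.0419), and 2.18 ± 0.87 (adjusted p = 0.0966) without that library. Adgre1 moved from -1.98 ± 0.94 (adjusted p = 0.206) to -3.31 ± 0.64 (adjusted p = 0.00493).

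The third question was which genes set the cells that stayed in the joint apart from those that stayed in the skin. This comparison shares its libraries with the comparisons above. Joint and skin cells come from separate data sets, so site and data set cannot be told apart here. Vsig4 was the 1 gene of the 10 called, and it was higher in the joint, where 1.14% of all genes were higher, 1.9% lower and 3.05% called in all. At an adjusted p under 0.05, 4 passed, against 14.3% of all genes. Its levels of 44.3, 44.3 and 15.2 CPM in the joint stood over 0.18, 0.234 and 0.831 CPM in the skin. The log2 fold change was 6.32 ± 0.60 (adjusted p = 0.000173), and 7.35 ± 0.66 (adjusted p = 7.06e-05) without replicate 3. Among the sets of samples tried, the call was lost, with the direction kept, without joint nonmigrated replicate 2, without skin nonmigrated replicate 1 or 2, and when only these 6 libraries were fitted, the highest adjusted p being 0.00281.

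Neutrophil genes differed along with it. Of the 11 on the list, 6 were called higher in the joint, led by Camp, an antimicrobial peptide of immature granulocytes, with a log2 fold change of 10.4 ± 0.62. Within the joint the neutrophil sum was 9807, 18600 and 31440 CPM in replicates 1 to 3, where Vsig4 was 44.3, 44.3 and 15.2 CPM.

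Lyz2, Trem2 and Lyve1 had an adjusted p between 0.001 and 0.05. Lyz2 was 5.20 times higher in the joint (log2 fold change 2.38 ± 0.55, adjusted p = 0.00908), Trem2 3.09 times (1.63 ± 0.41, adjusted p = 0.0138) and Lyve1 5.47 times (2.45 ± 0.75, adjusted p = 0.0309). For all of them every joint library lay above every skin library. Without replicate 3 all became calls, at 3.49 ± 0.38, 2.32 ± 0.32 and 3.98 ± 0.64.

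Adgre1, Csf1r and Folr2 were between. Adgre1 was 511 to 696 CPM in the joint and 68.3 to 426 CPM in the skin, without overlap (1.63 ± 0.65, adjusted p = 0.0846). Csf1r overlapped, since skin replicate 3 at 1998 CPM exceeded joint replicate 3 at 1954 CPM (0.90 ± 0.37, adjusted p = 0.0896). So did Folr2 (1.22 ± 0.80, adjusted p = 0.276). Without skin replicate 3 the values were 2.96 ± 0.50 (adjusted p = 0.00104), 1.33 ± 0.36 (adjusted p = 0.0129) and 3.34 ± 0.58 (adjusted p = 0.00117).

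Mrc1 and Cd163 showed the least difference. Mrc1 was 758 to 1011 CPM in the joint and 187 to 1173 CPM in the skin, and its log2 fold change was 0.37 ± 0.63 (adjusted p = 0.696). For Cd163 the direction hung on 1 library: -0.13 ± 0.77 (adjusted p = 0.912) with all libraries, and 2.07 ± 0.38 (adjusted p = 0.00178) without skin replicate 3. Marco was likewise higher in the skin with all libraries (adjusted p = 0.119) and turned to 0.52 ± 0.69 (adjusted p = 0.588) without that library.

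**Figure D3:**
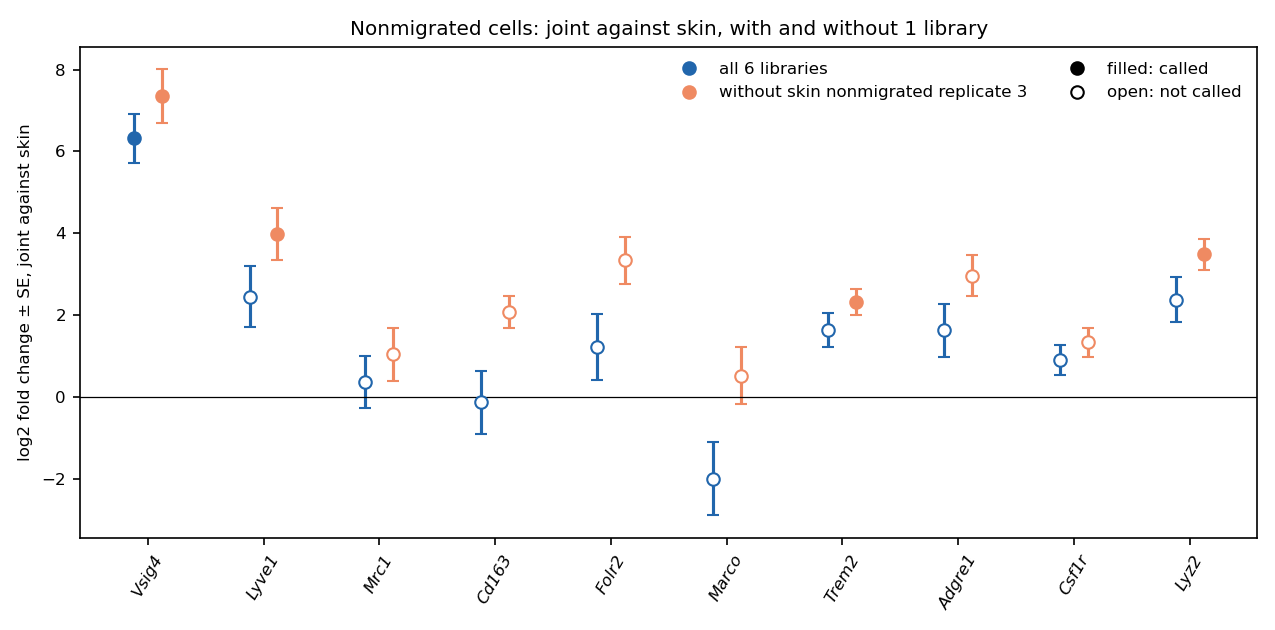
Log2 fold change with its standard error of joint against skin nonmigrated cells for the 10 genes, with all 6 libraries and without skin nonmigrated replicate 3, filled where called. Vsig4 was called both ways, and leaving the library out moved all 10 values up.

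Per kilobase of exon, the joint nonmigrated levels ran from Lyz2 at 9327 ± 1137 CPM per kb (SD, n = 3) over Csf1r at 424 ± 73.8, Adgre1 at 184 ± 29.0, Mrc1 at 136 ± 20.4 and Trem2 at 50.1 ± 9.51 to Vsig4 at 23.3 ± 11.3. Lyve1 at 20.4 ± 8.57, Folr2 at 14.8 ± 3.26 and Cd163 at 10.6 ± 2.14 followed, and Marco was last at 0.177 ± 0.034. Vsig4, Lyve1 and Folr2 did not differ beyond their spread. In skin nonmigrated cells Mrc1 stood above Adgre1, at 105 ± 77.4 against 59.6 ± 62.3 CPM per kb, though these spreads overlap. Vsig4 at 0.121, 0.158 and 0.56 and Marco at 0.125, 0.121 and 1.86 CPM per kb were lowest, and their order turned on replicate 3.

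To see whether members kept a fixed ratio, each was taken as a percentage of Csf1r CPM in the same library, a ratio used to compare libraries and not genes. Trem2 was steadiest in joint nonmigrated cells, at 9.91 to 10.2% of Csf1r, and lower in every other group for which it was taken: 4.37 to 7.05% in skin nonmigrated, 1.61 to 2.01% in joint migrated and 0.802 to 1.07% in skin migrated cells. It thus fell more than Csf1r did. Mrc1 fell as a share too, from 28.2 to 42.5% in joint nonmigrated to 5.92 to 17.2% in joint migrated cells.

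Lyz2 behaved otherwise. It was 407 to 615% of Csf1r in joint nonmigrated, 426 to 449% in joint migrated and 468 to 498% in skin migrated cells, so that these ranges lay close together while the level fell. Skin nonmigrated cells were lower, at 98.0 to 245%. Steady-state nodes were at 608 to 778% for the joint and 514 to 661% for the skin. Both node ranges lay above those of migrated cells and overlapped that of joint nonmigrated cells. The Adgre1 share was 21.5 to 26.2% for nonmigrated and 13.3 to 20.9% for migrated cells of the joint. It was 7.42 to 21.3% for cells that stayed in the skin and 27.0 to 42.1% for the skin node at steady state.

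**Figure D4:**
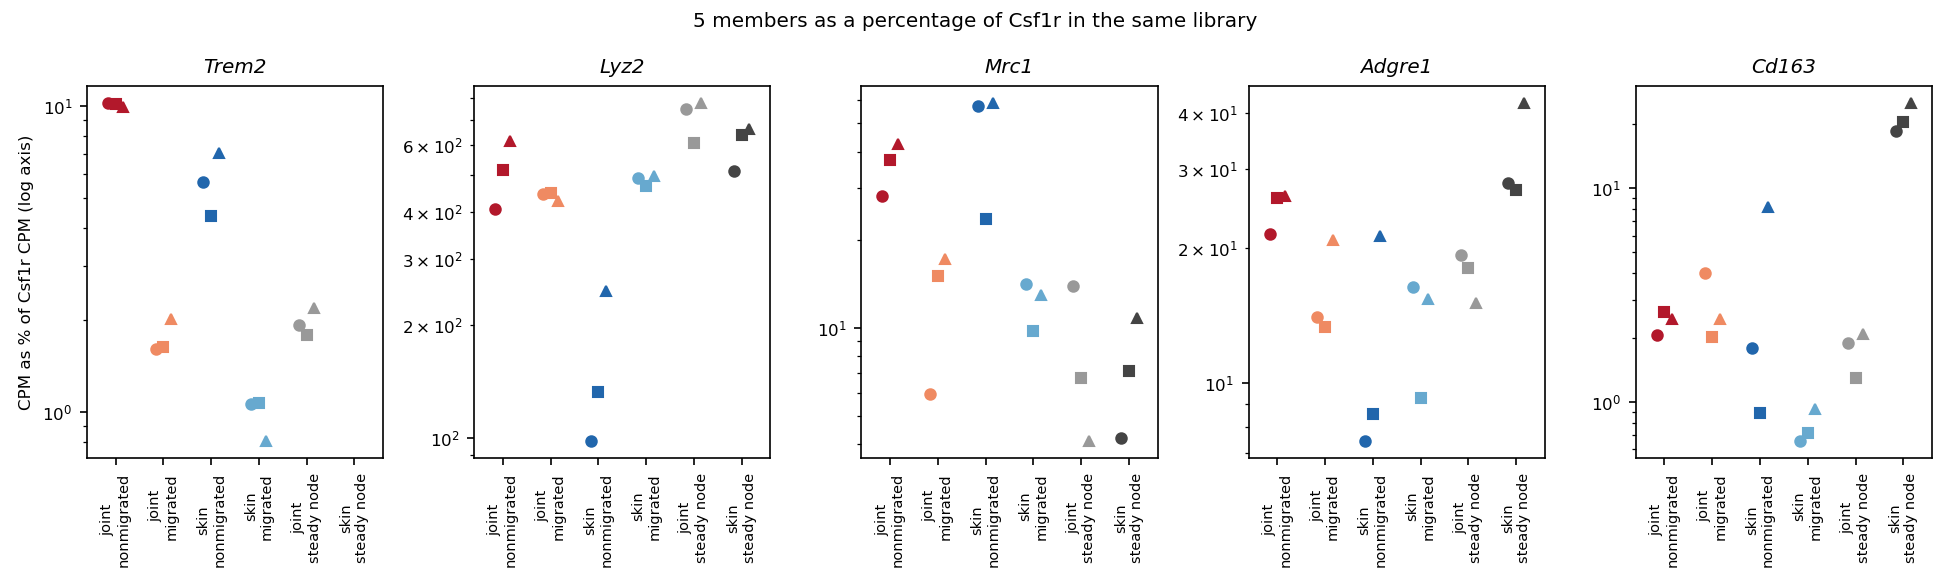
Trem2, Lyz2, Mrc1, Adgre1 and Cd163 as a percentage of the Csf1r CPM in the same library (log axes, each with its own range), 1 point per library in 6 groups. Trem2 is not drawn for the skin node at steady state, where not all libraries held more than 3 reads. The 3 joint nonmigrated libraries lie together for Trem2, and Cd163 is highest in the skin node at steady state.

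The fourth question concerned the cells that had left. Between joint migrated and skin migrated cells, 0 of the 10 genes and 0% of all genes were called by edgeR, and at an adjusted p under 0.05, 0 of the 10 and 1.14% of all genes. By unadjusted p under 0.05 there was 1 member, Marco, and 2770 genes of all, and DESeq2 called 0 members and 177 genes. Marco was 2.14 to 5.30 CPM in joint migrated and 0.2 to 0.791 CPM in skin migrated cells without overlap (log2 fold change 2.70 ± 0.87, adjusted p = 0.145). Csf1r, at 20.5 to 50.1 against 42.0 to 71.9 CPM, and Lyz2, at 91.2 to 213 against 197 to 358 CPM, overlapped.

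In the nodes, inflamed and steady-state cells were then compared. Vsig4, Lyve1 and Folr2 were too low to be tested, so that 7 of the 10 passed the filter on low counts. Vsig4 had 2 reads in the joint node and none in the skin node over 3 libraries each, and Folr2 had 3 in each.

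Of these 7 genes, none was called between joint migrated cells and the joint node at steady state, where 15.9% of all genes were called by edgeR, 12.4% higher and 3.5% lower. By unadjusted p under 0.05 there was 1, Lyz2, which DESeq2 called and which also passed at an adjusted p under 0.05, as 24.2% of all genes did. For the unadjusted p and DESeq2 no number over all genes is given here, so these counts are not read as particular to members. Lyz2 was 91.2, 193 and 213 CPM in joint migrated and 434, 300.1 and 308 CPM in steady-state cells, with a log2 fold change of -1.04 ± 0.29 (adjusted p = 0.00968). Of 11 neutrophil genes, 10 were called lower in the same comparison. Csf1r, at 20.5 to 50.1 against 39.6 to 57.8 CPM, and Adgre1, at 2.87 to 10.4 against 5.97 to 11.1 CPM, overlapped.

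For the skin, 5 of the 7 were called: Mrc1, Trem2, Csf1r and Lyz2 were higher in skin migrated cells and Cd163 was lower, against 16.6% of all genes higher, 8.51% lower and 25.1% in all. The 0.05 threshold passed 6 of the 7, against 36.5% of all genes. These skin groups also differ in depth and in the pattern of column names. A difference between data sets cannot be told apart from one of inflammation. Csf1r was 56.9, 42.0 and 71.9 CPM in skin migrated and 8.52, 9.10 and 5.38 CPM in steady-state cells (2.92 ± 0.31, adjusted p = 3e-06). Lyz2 was 280, 197 and 358 CPM against 43.8, 58.0 and 35.6 CPM (2.63 ± 0.31, adjusted p = 6.75e-06). Neutrophil genes did not move with it, 0 of 11 being called by edgeR, at a sum of 14.6 to 29.6 CPM against at most 23.4 CPM. Other lists did: 4 of 11 monocyte and 5 of 10 dendritic cell genes were called higher, and all 6 B cell genes lower, from a sum of 3033 to 4159 CPM at steady state to 156 to 261 CPM. Their part in these calls was not tested.

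Mrc1 was 4.09 to 9.30 CPM in skin migrated and 0.359 to 0.648 CPM in steady-state cells (3.79 ± 0.73, adjusted p = 0.000497). Trem2 was 0.449 to 0.605 CPM against 0.0611 to 0.112 CPM, the latter from 2 to 5 reads a library (2.71 ± 0.51, adjusted p = 0.000452). Cd163 was the reverse, at 0.372, 0.3 and 0.665 CPM against 1.57, 1.85 and 1.34 CPM (-1.79 ± 0.35, adjusted p = 0.000628). As a share of Csf1r, Cd163 was 18.4 to 25.0% in the skin node at steady state and at most 8.17% in any other library. Of the 5 calls, between 2 and 3 were left when any 1 of the 6 libraries was omitted, Csf1r and Lyz2 among them each time. Without skin migrated replicate 2, Cd163 and Trem2 were lost and Adgre1 was called.

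The steady-state nodes differed from each other in 3 of the 7 genes, all higher in the joint node, where 1.4% of all genes were higher, 0.0409% lower and 1.44% called in all. The 0.05 threshold passed 5, against 3.89% of all genes. Csf1r was 39.6 to 57.8 CPM against 5.38 to 9.10 CPM (log2 fold change 2.66 ± 0.31, adjusted p = 0.000129), Lyz2 300.1 to 434 CPM against 35.6 to 58.0 CPM (2.91 ± 0.31, adjusted p = 6.78e-05) and Trem2 0.865 to 1.11 CPM against 0.0611 to 0.112 CPM (3.47 ± 0.47, adjusted p = 0.000412). The nodes also differ in what their titles name, PBS for the joint and naive for the skin, and site and treatment cannot be told apart. All 11 neutrophil genes were called higher too, their sum being 666 to 1232 CPM against at most 23.4 CPM, and 7 of 11 monocyte genes. Trem2 lost its call when any 1 of the 6 libraries was omitted. Without skin steady-state replicate 1 or 3 the number of calls was 0, and without replicate 2 it was 1. The site by inflammation interaction, which sets the inflamed against steady-state change of the joint over that of the skin, was called for Csf1r at -3.26 ± 0.42 and Lyz2 at -3.67 ± 0.42, against 0.696% of all genes called negative, 0.193% positive and 0.889% in all. At an adjusted p under 0.05, 6 of the 7 passed, against 6.11% of all genes.

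The wider macrophage programme was followed through lists of genes chosen by function, some of which share members, such as Spi1 and Msr1. In the joint, 13 of 14 shared macrophage genes were called lower in migrated cells, with Cd14 at -7.71 ± 0.66 and Fcgr1, the high-affinity IgG receptor, at -7.34 ± 0.59, and none was higher. In the skin it was 12 of 14. Of 17 other genes of resident macrophages, 16 were tested and 8 were lower at each site, led by Cbr2 (-7.27 ± 1.16) in the joint and F13a1 (-8.22 ± 0.72) in the skin. Spic, a factor of red pulp and bone marrow macrophages, was called higher in joint migrated cells (3.17 ± 0.53).

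Partners of TREM2 and lipid-handling genes followed, with 11 of 15 lower and 1 higher in the joint, and 10 lower and 0 higher in the skin. Lpl, a lipase, was at -8.32 ± 0.74 and Spp1 at -7.64 ± 0.54 in the joint. Of 12 other scavenger receptors, 11 were tested and 6 were lower at each site, Stab1 (-6.90 ± 0.50) and Msr1 (-6.66 ± 0.63) leading in the joint. In the joint 1 of these receptors was called higher, and in the skin 0. Among 12 myeloid transcription factors 6 were lower and 1 higher in the joint, and 7 were lower and 0 higher in the skin. Spi1, which encodes PU.1, fell by 1.92 ± 0.26 in the joint and 1.40 ± 0.26 in the skin on the log2 scale. The median log2 fold changes of these lists in the joint were -6.36 for the shared genes, -3.73 for the resident genes, -2.97 for the TREM2 list, -2.60 for the scavenger receptors and -1.90 for the factors, beside 0.02 for all genes tested and -6.77 for the 10 genes.

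Between joint and skin nonmigrated cells 3.05% of all genes were called, and of these lists 0 of 14 shared genes, 0 of 16 resident genes tested and 0 of 11 scavenger receptors tested by edgeR were, with medians of 0.26, -0.14 and 0.07. Of the 15 genes in the TREM2 list, 1 was called, lower in the joint, and the median of that list was -0.315. The factors Nr4a1 (3.31 ± 0.42) and Klf4 (2.59 ± 0.29) were higher in the joint. In the skin node comparison all 14 shared genes were higher in migrated cells, led by Aif1 (4.92 ± 0.31), and in the joint node comparison 3 were.

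Ligands of the receptors among the 10 genes were counted in the same libraries. Csf1, the main ligand of CSF1R, was 67 to 91.8 CPM in joint and 280 to 815 CPM in skin nonmigrated cells, a called difference of -2.75 ± 0.36, and it fell with migration by 4.02 ± 0.39 on the log2 scale in the skin. Il34, its other ligand, reached 1.40 CPM at most in any library. C3, whose fragments bind VSIG4, was 1153 to 1524 CPM in joint nonmigrated and 12.4 to 29.3 CPM in joint migrated cells (-5.94 ± 0.33). Hp, haptoglobin, which CD163 takes up with haemoglobin, was 269 to 553 CPM in joint and 59.8 to 80.8 CPM in skin nonmigrated cells (2.45 ± 0.33, called). Apoe, a ligand of TREM2, averaged 4477 ± 606 CPM in the joint and 1169 ± 1221 CPM in the skin (1.94 ± 0.57, adjusted p = 0.0265). The skin libraries were at 590, 346 and 2571 CPM, so that replicate 3 held 5.50 times the mean of the other two.

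**Figure D5:**
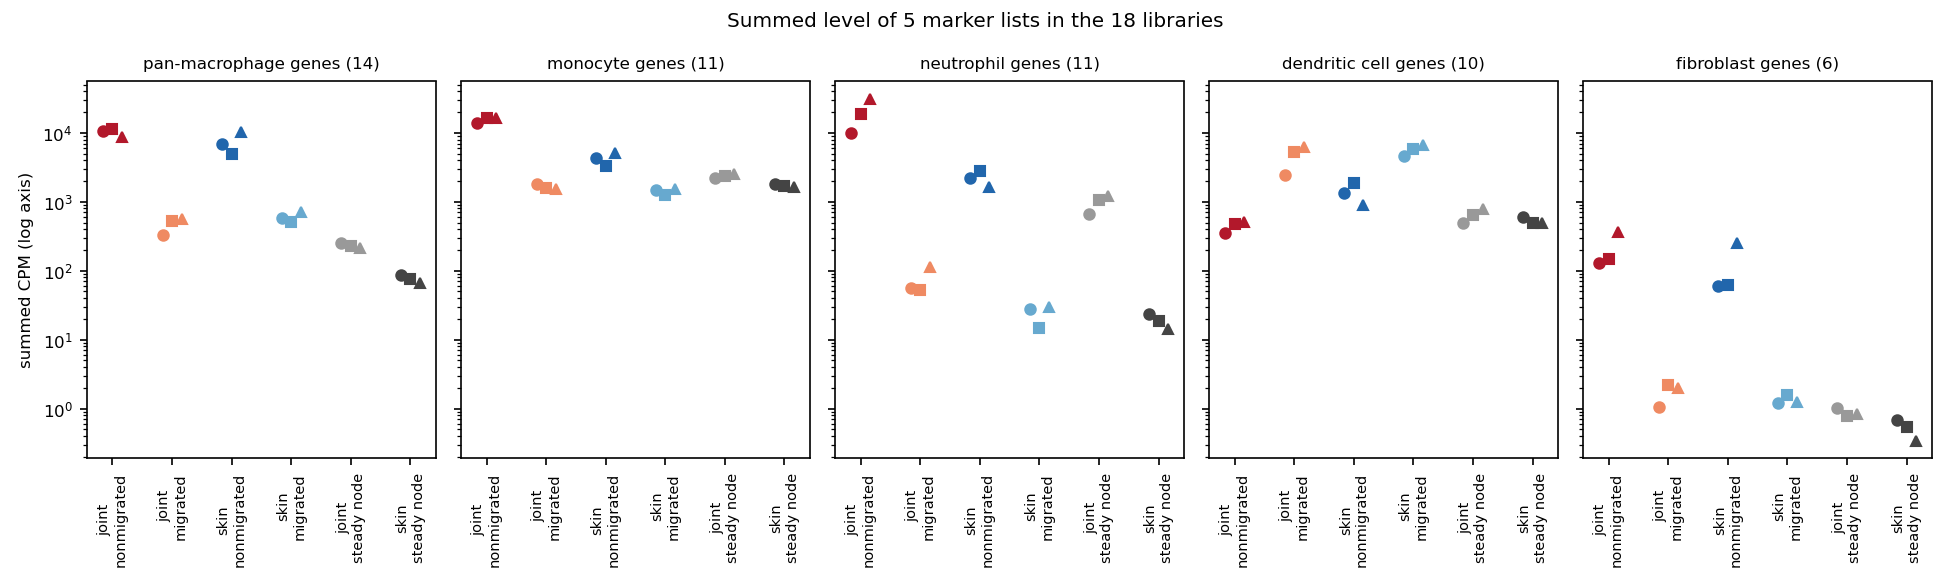
Summed CPM (log axis) of 5 lists of marker genes in each of the 18 libraries, with the number of genes in each list in its title. Shared macrophage, monocyte, neutrophil and fibroblast genes were highest in nonmigrated cells and dendritic cell genes in migrated cells, where they reached 6660 CPM.

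Other cell types moved with the 10 genes in both migration comparisons. Of 11 monocyte genes, 6 were lower and 1 higher in joint migrated cells, and 7 were lower and 1 higher in skin migrated cells. All 6 fibroblast genes were lower at each site, from a sum of 129 to 362 CPM to 1.05 to 2.17 CPM in the joint, although fibroblasts lack CD45 and the sort would remove them. Among 7 osteoclast genes 5 were tested and 4 were lower at each site, and Calcr, the calcitonin receptor that defines mature osteoclasts, had no read in any group but joint nonmigrated. Mast cell genes were called in neither comparison. Rising instead were T cell genes (7 of 7 in the joint, 2 of 7 in the skin), B cell genes (4 and 6 of 6) and dendritic cell genes (5 and 3 of 10, with 2 lower at each site). Of the Langerhans cell genes Cd207 was lower in the skin. Ptprc, which encodes the CD45 used for the sort, changed by 0.38 ± 0.12 and 0.22 ± 0.12 and was called in neither. The part of these cells in the falls was not tested.

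For each of the 10 genes, the 3 genes with the most similar pattern were sought among 11926 genes that reached 5 CPM in some group, by the root mean square (RMS) difference between log2(CPM + 0.5) group means, each centred over the 6 groups. Csf1r lay closest to Clec4a2 (RMS difference 0.211), Cd300c2 (0.253) and Cmklr1 (0.258), and Folr2 to Scamp5 (0.103). Mrc1 lay closest to Dab2 (0.404), Trem2 to Mmp19 (0.392), Adgre1 to Serpinb8 (0.314), Lyve1 to Trim47 (0.236), Cd163 to Ctsk (0.399), Lyz2 to Anxa1 (0.387) and Marco to Mdk (0.455). Vsig4 lay closest to Ms4a3 (0.401), Fcnb (0.407) and Ctsg (0.586), which are known from granulocyte and monocyte precursors. Ms4a3 averaged 34.9 CPM in joint nonmigrated cells and at most 0.244 CPM in any other group. Within the set, Adgre1 and Csf1r were the closest pair (0.437) and Mrc1 and Marco the farthest (4.04).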

How the data were processed

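CD45+ cells, Kaede red in the labels' protocol, were sequenced as paired 100-base reads in 18 libraries. The authors trimmed reads with Trim Galore, aligned them with TopHat2 to mm10 with Ensembl release 87 models, and deposited raw read counts per gene made with HTSeq; tool versions are not given in the sources used here. The 5 summary lines, 11.3 to 15.1% of reads, were left out. Of 49585 genes, 49326 matched GENCODE M21, the source of symbols, positions and exon lengths.

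Counts were fitted with edgeR 4.0.16 (R 4.3.3, limma 3.58.1) by the quasi-likelihood test, after TMM scaling and a filterByExpr filter (minimum count 10), over the 12 inflamed libraries (16777 genes) and the 12 node libraries (17107 genes), with group as the only factor. Standard errors were derived from each fold change and its F statistic, as log2 fold change over root F. Levels are TMM-scaled CPM. DESeq2 1.42.0, which the authors used at an adjusted p of 0.05, was an alternative, beside other scalings, filters and sample sets. The fit was tested on simulated data. The 10 genes and the other lists were chosen with earlier results of these data known. Named from each other list were up to 2 called genes of largest change in each direction, or the most abundant gene where none was called; Csf1, Il34, C3, Hp, Apoe, Spi1, Tyrobp, Prox1, Calcr and Ms4a3 were named beside them for their role or value. Promoter windows came from RefSeq. Inflamed replicates are separate pools, and for steady-state replicates the source is not given, so p-values measure only the spread between these samples. Same-group libraries differed beyond sampling noise, so each was counted once. Figures were drawn with matplotlib 3.10.9. One gene of the other lists is not reported here by name, and motifs searched other than the PU.1 forms are not reported here.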

Additional observations from a re-analysis of the deposited data

Results flagged for a closer look

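The inflamed against steady-state change differed between joint and skin nodes for 2 of the 10 genes, by the interaction test in edgeR over 12 node libraries. For Csf1r the interaction was -3.26 (SE 0.42, adjusted p = 0.000435): the change was -0.34 ± 0.29 in the joint and 2.92 ± 0.31 in the skin. For Lyz2 it was -3.67 (SE 0.42, adjusted p = 0.000236), from -1.04 ± 0.29 in the joint and 2.63 ± 0.31 in the skin. Both comparisons rest on steady-state libraries that differed in neutrophil genes, at a sum of 666 to 1232 CPM in the joint node and at most 23.4 CPM in the skin node. The part of neutrophils was not tested. The steady-state groups also differ in title (PBS and naive), so that site and treatment cannot be told apart. Skin migrated libraries held 19239531 to 22378238 counts and skin steady-state libraries 28577566 to 40055171. Their column names follow different patterns. Joint migrated and joint steady-state libraries overlapped in depth and share a pattern of names. A difference between data sets therefore cannot be told apart from this interaction. Without joint steady-state replicate 3, or without skin steady-state replicate 1 or 3, neither gene was called. When joint migrated replicate 2, skin migrated replicate 1 or 3, joint steady-state replicate 1 or 2, or skin steady-state replicate 2 was left out, 1 was.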

How the results depend on the processing

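The precision is limited by 3 libraries a group and, for Vsig4, Lyve1 and Folr2 outside the tissues, by counts of 0 to 14 a library. Counting intervals cover counting error only. Of 1358 values of single genes under alternatives, 1204 kept their direction and side of the threshold, 86 lost the call, 47 gained it and 21 changed sign. With CPM from library totals alone, 57 of 60 group levels moved by less than 1 SD, and the ratios were 0.849 to 1.14. Thinning to 19239531 counts per library was also run.

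Numbers of called genes that changed by over 1.5 times follow, with the cause not tested. At an adjusted p under 0.05 there were 4 between joint and skin nonmigrated cells, 2 in the site by migration interaction, 1 in the joint node, 5 between steady-state nodes and 6 in the site by inflammation interaction. DESeq2 gave 2, 1 and 1 in the first 3 of these. Without a filter on low counts there were 2 between nonmigrated cells, 1 in the joint node, 5 between steady-state nodes and 4 in the site by inflammation interaction. With only the groups compared in the fit, 3 were left in the skin migration comparison and 0 between nonmigrated cells. Over all genes that setting left 2111 and 0, against 3508 and 511 in the main fit. With all 18 libraries in 1 fit, 2 were left in the skin node, 1 between steady-state nodes and 1 in the site by inflammation interaction. Without skin nonmigrated replicate 3 at 0.05, an alternative chosen after seeing the data, there were 8 between nonmigrated cells and 4 in the site by migration interaction. Over all genes that setting gave 3720 and 2610, against 511 and 20 in the main fit. Numbers over all genes also moved across the alternatives, between 0 and 3720 for nonmigrated cells. They ran from 2071 to 4143 in the joint node (2714 in the main fit) and 3525 to 6249 in the skin node (4297). Between steady-state nodes they were 83 to 665 (246), and in the site by inflammation interaction 48 to 1045 (152).

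Leaving out 1 library at a time gave 3 to 8 calls in the skin migration comparison, 0 to 4 between nonmigrated cells, 0 to 1 in the site by migration interaction, 2 to 4 in the skin node, 0 to 2 between steady-state nodes and 0 to 2 in the site by inflammation interaction. On the log2 scale, signs changed within these ranges: for skin migration Marco (-1.83 to 1.18), between nonmigrated cells Mrc1 (-0.078 to 1.04), Cd163 (-0.67 to 2.07) and Marco (-2.49 to 0.52), between migrated cells Mrc1 (-0.87 to 0.095), Trem2 (-0.067 to 0.67) and Adgre1 (-0.89 to 0.014), in the site by migration interaction Lyve1 (-2.11 to 0.31), Cd163 (-0.97 to 1.77) and Folr2 (-1.90 to 0.76), and in the joint node Mrc1 (-0.14 to 1.17). Skin nonmigrated replicate 3 gave the sign change of Marco, Cd163 and Folr2, with values of 1.18, 2.07, 0.52, -0.97 and -1.90 at either threshold, whereas joint migrated replicate 2 also turned Folr2 in the interaction. None of these values passed the 0.001 threshold, and Cd163 at 2.07 passed 0.05.

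Whether replicate numbers pair samples is not settled, and the main fits ignore any pairing. No comparison had every same-number correlation over 0.1. They were 0.021 to 0.254 for joint migration, 0.073 to 0.173 for skin migration and 0.093 to 0.19 between migrated cells. As a hint from the data, not the design, 6 of 6 samples in skin migration and 5 of 6 in joint migration and between migrated cells correlated best with their own number. With the replicate block, 0 were called between nonmigrated cells, 2 in the skin node and 1 in the site by inflammation interaction. The block turned Cd163 to 1.03 between nonmigrated cells and Folr2 to -0.022 in the site by migration interaction, and thinning turned the latter to -0.14.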

Other observations

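Some relatives of the 10 genes were higher in migrated cells, Izumo1r and Cd163l1 against nonmigrated cells and Mrc2 against the joint node at steady state. Mrc2 was not called higher in joint migrated than in joint nonmigrated cells. Izumo1r, a folate receptor relative of Folr2 known from regulatory T cells, was 1.70 to 3.43 CPM in joint nonmigrated and 39.9 to 49.4 CPM in joint migrated cells (log2 fold change 4.16 ± 0.32, called by edgeR), and it was also called higher in skin migrated cells (3.14 ± 0.31). Cd163l1, a relative of Cd163 known from gamma delta T cells, was 3.91 to 12.4 CPM against 52.3 to 56.5 CPM in the joint (2.71 ± 0.44, called). Mrc2, a collagen receptor related to Mrc1, was 4.02 to 5.56 CPM in joint migrated and 0.0667 to 0.147 CPM in joint node cells at steady state (5.50 ± 0.30, called).

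Trem1, which amplifies inflammatory signals and is encoded near Trem2, did fall with migration, by 5.96 ± 0.67 in the joint and 6.62 ± 0.71 in the skin on the log2 scale. Of the F4/80 relatives, Adgre5 was called lower in joint migrated cells (-1.60 ± 0.17) and higher in joint than in skin nonmigrated cells (1.42 ± 0.17). Adgre4 gave -2.97 ± 0.67 in the joint (adjusted p = 0.00272, not called). Lyz1 was 63.7 to 126 CPM in joint nonmigrated and 5.96 to 10.9 CPM in joint migrated cells (-3.52 ± 0.86, adjusted p = 0.00445, not called).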
